A study of Mus musculus with 16 samples.

Results

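Of 20807 autosomal protein-coding genes, 128 had RNA polymerase II (Pol II) at their promoter in embryonic stem cells and not in fibroblasts. The promoter window reached 1000 bp to each side of the start of the gene record, and a gene was a member when a Pol II peak overlapped this window in both stem cell peak lists and in neither fibroblast list. The members were thus chosen by the measured Pol II values themselves, so their Pol II at the promoter is given as a description. The distribution of monoubiquitylated histone H2B (H2Bub1) was not used to choose them.

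The peaks came from chromatin immunoprecipitation and sequencing of mouse embryonic stem cells (mESCs) and primary mouse embryonic fibroblasts (MEFs) of wild-type (WT, Atxn7l3+/+) and knockout (KO, Atxn7l3-/-) genotype on a mixed DBA/2 x C57BL/6 background. The mESCs were derived from E3.5 blastocysts of heterozygous crosses and grown with serum, leukaemia inhibitory factor and the inhibitors PD0325901 and CH99021, the first passages on feeder cells, whereas the MEFs came from E10.5 embryos. The null allele was inherited through the germ line and not restricted to a cell type. Each of the 8 lists (Pol II and H2Bub1, WT and KO, mESC and MEF) came from 1 library, so the differences could not be checked against replicates or tested. Intervals are exact 95% intervals and cover counting error within a list only.

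ATXN7L3 is the adaptor that a group of related deubiquitylases needs to remove ubiquitin from histone H2B. H2Bub1 is laid down along with transcription elongation and marks the bodies of transcribed genes. Embryonic stem cells are held in the pluripotent state by a small circuit of transcription factors, among them OCT4 (Pou5f1), SOX2 and NANOG, whose genes are silenced in fibroblasts.

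The promoters below are shown because 3 of them belong to pluripotency factors that also served as cell type markers (Pou5f1, Nanog and Zfp42) and the fourth, Tex19.1, had the highest Pol II among the members by the geometric mean of the WT and KO folds. Each run covers 250 bases before and 50 bases from the start of the GENCODE gene record, read from the NCBI RefSeq genome sequence of GRCm38.p6, in the direction of transcription. Capitals mark matches to short promoter motifs, each searched on both strands. For the element near the start read by the basal machinery the letters were TATAAA. The octamer that POU factors recognise was searched as ATTTGCAT and the core bound by SOX proteins as CATTGT. The box recognised by SP1 and its relatives was searched as GGGCGG. The element that the factor NF-Y recognises was searched as CCAAT. The palindrome of basic helix-loop-helix proteins was searched as CACGTG, the element of E2F proteins as GGCGGGAA, the half-site of nuclear receptors as AAGGTCA and the core of ETS proteins as CCGGAAG. These are called TATA box, octamer, SOX core, GC box, CCAAT box, E-box, E2F core, nuclear receptor half-site and ETS core below, and a GC box can overlap an E2F core.
Pou5f1: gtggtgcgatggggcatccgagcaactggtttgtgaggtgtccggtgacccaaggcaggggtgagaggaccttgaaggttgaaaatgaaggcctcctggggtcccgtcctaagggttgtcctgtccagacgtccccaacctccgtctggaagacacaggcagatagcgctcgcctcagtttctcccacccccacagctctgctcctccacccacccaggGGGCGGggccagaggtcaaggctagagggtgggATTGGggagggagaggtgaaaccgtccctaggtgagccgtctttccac
Nanog: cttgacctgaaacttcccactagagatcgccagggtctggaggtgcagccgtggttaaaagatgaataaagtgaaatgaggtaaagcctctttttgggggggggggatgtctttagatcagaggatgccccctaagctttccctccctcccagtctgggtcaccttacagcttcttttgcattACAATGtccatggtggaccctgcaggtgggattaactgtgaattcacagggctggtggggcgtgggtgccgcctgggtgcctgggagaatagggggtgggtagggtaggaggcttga
Zfp42: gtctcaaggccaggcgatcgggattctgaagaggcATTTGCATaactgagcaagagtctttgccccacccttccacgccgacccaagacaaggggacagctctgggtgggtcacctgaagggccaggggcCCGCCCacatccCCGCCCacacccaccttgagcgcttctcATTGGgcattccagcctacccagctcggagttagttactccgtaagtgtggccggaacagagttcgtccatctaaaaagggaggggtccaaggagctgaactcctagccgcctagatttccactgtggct
Tex19.1: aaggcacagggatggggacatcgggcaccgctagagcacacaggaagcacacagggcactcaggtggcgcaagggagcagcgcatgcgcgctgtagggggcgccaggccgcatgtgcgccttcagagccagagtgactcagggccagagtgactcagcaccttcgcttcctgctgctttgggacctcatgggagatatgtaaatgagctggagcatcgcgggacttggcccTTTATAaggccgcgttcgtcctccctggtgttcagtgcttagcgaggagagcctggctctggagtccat
Pou5f1 lies at chr17:35505768-35506067 on the plus strand, Nanog at chr6:122707239-122707538 on the plus strand, Zfp42 at chr8:43306931-43307230 on the minus strand and Tex19.1 at chr11:121145893-121146192 on the plus strand. The Zfp42 window held the octamer at position -215, a pair of GC boxes at -120 and -108 and a CCAAT box at -80, counted from the gene start. The Nanog window held a SOX core at -67 and only 4 CpG dinucleotides, while the Tex19.1 window held a TATA box at -19 and 16 CpG. Only exact matches were counted, and the Nanog run ttttgcat just before the SOX core differs from the searched octamer in its first base. The Pou5f1 window had a GC box at -31, a CCAAT box at 2 and 11 CpG.

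Across the 128 member promoters the octamer occurred in 5, or 3.91% (1.28 to 8.88), against 1.59% of all 20807 promoter windows of the same length. The 5 were Zfp42, Neurog1, Tspan13 and the divergent histone gene pair Hist1h2aa and Hist1h2ba, whose windows share DNA. The SOX core was found in 8.59% of members and in 10.4% of all windows, the TATA box in 13.3% and 12.7%, the CCAAT box in 36.7% and 38.6%, and the E-box in 7.81% and 7.82%. The GC box was more frequent in members, in 69 of 128 (53.9%, 44.9 to 62.8) against 43.7% of all windows. The ETS core occurred in 7.03% (3.27 to 12.9) against 11.0%, a share inside the interval. The E2F core occurred in 3.91% and 2.97%, and the nuclear receptor half-site in 7.03% and 4.23%. Median GC content was 59.5% in members (57.0 to 61.7) and 55.3% in all windows, with a median of 11.5 (9 to 17) and 12 CpG. A letter match is a description of the window and not evidence of binding, and the set of all windows contains many genes with no Pol II at all.

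The label of the cells was checked first. All 6 mESC markers used for the check (Pou5f1, Sox2, Nanog, Zfp42, Dppa5a and Tdgf1) were among the members. They also stand on longer lists of genes of pluripotent cells, drawn up with earlier results of these data known. Of those lists only 7 of 21 and 6 of 21 genes were members, so the marker count is a description. None of 11 fibroblast markers had a promoter peak in either mESC list, while 10 of the 11, such as Col1a1, Col3a1 and Twist1, had one in both MEF lists. The exception was Postn, with a peak in WT MEFs only. The targeted gene, Atxn7l3, kept a promoter peak in all lists, at 3.61-fold (WT) and 3.71-fold (KO) in mESCs and at 20.9-fold (WT) and 23.4-fold (KO) in MEFs, so peaks at its start do not check the genotype labels. The mESC lists contained 17074 (WT) and 11963 (KO) Pol II peaks and the MEF lists 45870 (WT) and 32232 (KO), which put a peak at 7336, 6672, 11497 and 10890 promoters. The longer MEF lists leave fewer promoters for the mESC-only class, and read depth is unknown. With equal numbers of peaks in the 4 Pol II lists, 246 promoters met the rule, 100 of them among the 128. In such bulk libraries, fewer cells carrying a peak and less signal per cell cannot be told apart.

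A further 217 promoters carried Pol II in WT mESCs alone and 92 in KO mESCs alone. By comparison, 5437 promoters had Pol II in all 4 lists, 2951 in both MEF lists and in neither mESC list, and 8559 in none. The members made up 0.615% of autosomal genes. They were spread over all 19 autosomes, with 14 on chromosome 11 and 1 on chromosome 18 at the ends of the range. Only 10 pairs of neighbouring members had starts within 100000 bp of each other, among them Dppa5a and Ooep, 10548 bp apart, and Gdf3 and Nanog, 97402 bp apart.

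Pluripotency regulators formed the most recognisable group. Of 21 transcription factors of pluripotency, 7 were members (33.3%), namely Pou5f1, Sox2, Nanog, Zfp42, Sall4, Prdm14 and Gbx2. Of the other factors on that list, 6 had Pol II in all 4 lists (Klf2, Klf4, Klf5, Stat3, Tbx3 and Tcf7l1), and 4 had no peak at the start of the gene record in any list (Esrrb, Nr5a2, Otx2 and Zscan10). A second list of genes known from pluripotent cells gave 6 of 21 (Dppa5a, Tdgf1, Ooep, Dppa2, Fbxo15 and Lin28b). These lists and the members were drawn up with results of these data known, so their overlap is a description.

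At Sox2 the promoter fold, which is the height of the peak over the local background, was 7.33 in WT and 9.41 in KO mESCs. At Pou5f1 it was 5.01 in WT and 3.55 in KO, and at Nanog it was 4.64 and 3.55. The order of the genotypes thus differed among the core factors, with Sox2 higher in KO and the other two lower. The values of Pou5f1 and Nanog came from differently placed summits, at -2092 bp in WT and 476 bp in KO for Pou5f1 and at -1002 bp and 1008 bp for Nanog, counted from the start. Zfp42 (REX1, a zinc finger protein that marks naive cells) had 3.44-fold in WT and 3.75-fold in KO. Sall4, which encodes a zinc finger partner of OCT4, had 3.99-fold and 3.55-fold, and Prdm14, a repressor that guards naive pluripotency, 3.81-fold and 4.79-fold. Gbx2, a homeobox gene downstream of LIF signalling, had 5.85-fold and 4.10-fold. No member of this group differed 1.5-fold between the genotypes.

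The H2Bub1 covered share, the part of the gene body that lay inside an H2Bub1 peak, was large at these factors in both mESC lists and nil in both MEF lists. Sox2 and Gbx2 were covered over 100% of their length in WT and KO mESCs alike. The covered share was 87.7% in WT and 100% in KO for Pou5f1, 81.3% and 100% for Nanog, and 75.05% and 100% for Zfp42. Sall4 went from 86.3% to 93.7% and Prdm14 from 62.6% to 87.3%. All 7 genes were at 0% in MEFs of either genotype. For all 21 factors of the list, H2Bub1 was present in the gene body in 21 of 21 in each mESC list. In MEFs it was present in 5 (WT) and 9 (KO) of the 21, none of them a member. The shares of all autosomal genes with H2Bub1 were 55.7% (WT) and 62.1% (KO) in mESCs and 31.7% (WT) and 54.3% (KO) in MEFs, so the MEF counts of the list do not set it apart.

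The mean fold of the H2Bub1 peaks inside a body gives a second view. At Sox2 this mean fold was 7.51 in WT and 4.09 in KO mESCs, over the same fully covered body. At Pou5f1 it was 3.14 in WT and 4.96 in KO, and at Nanog 3.51 and 3.73.

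**Figure D1:**
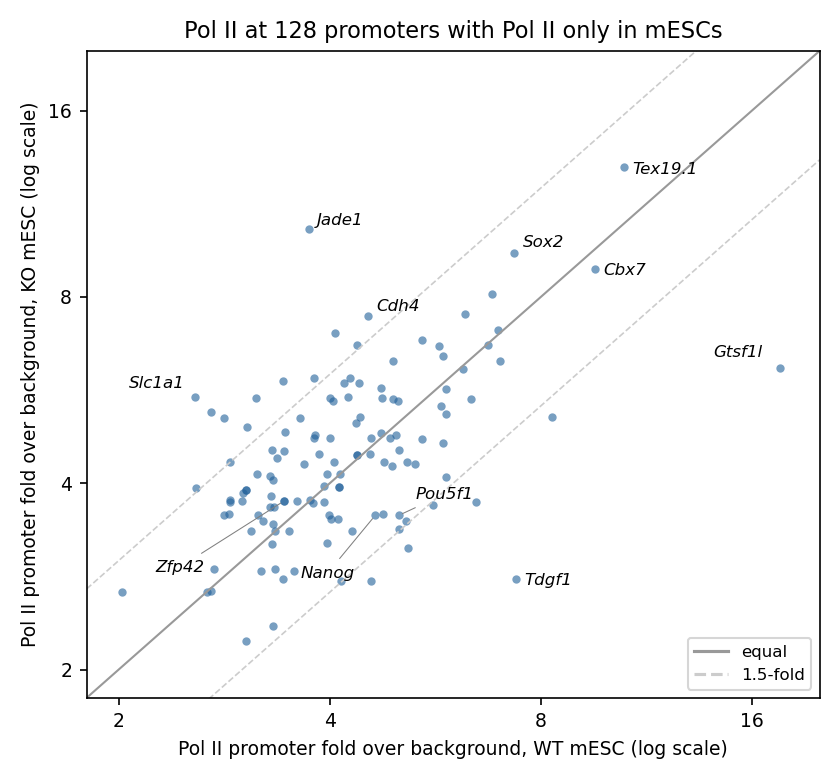
Pol II promoter fold over local background in WT mESCs (x axis) and KO mESCs (y axis), both on log scales, for the 128 members, 1 point per promoter. The solid line marks equal fold and the dashed lines a 1.5-fold difference. Most points lie between the dashed lines, with 13 members above them (Jade1 highest) and 7 below (Gtsf1l and Tdgf1 lowest).

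Among the other genes of pluripotent cells, Dppa5a, which encodes an RNA-binding protein of early embryos, had 6.81-fold Pol II in WT and 8.08-fold in KO mESCs. Its neighbour Ooep, an oocyte-expressed gene of the same family, had 3.86-fold and 4.46-fold. Tdgf1 (Cripto, the co-receptor for Nodal) differed more, from 7.37-fold in WT to 2.81-fold in KO, a KO to WT ratio of 0.381. Its body had 39.1% inside Pol II peaks in WT and 0% in KO, and its H2Bub1 covered share was 83.8% in WT and 77.0% in KO. Tdgf1 was thus among the few members with lower Pol II and lower H2Bub1 in KO. Dppa2, a nuclear protein of the early embryo, had 3.96-fold and 3.20-fold Pol II, and H2Bub1 over 30.1% and 28.9% of its body.

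The ligands Nodal and Gdf3 act through the receptor complex that Tdgf1 serves. Nodal had 5.73-fold Pol II in WT and 6.68-fold in KO mESCs, with H2Bub1 over 100% of the gene in both. Gdf3 had 6.72-fold and 6.70-fold, with H2Bub1 over 80.0% and 100%. Of the 27 autosomal genes in the list of Nodal, FGF and LIF signalling these were the 2 members (7.41%, against 0.615% of all autosomal genes), while 9 had Pol II in all 4 lists and 5 in both MEF lists only. Of the ligands, Nodal was thus higher in KO and Gdf3 nearly equal, while the co-receptor gene Tdgf1 was lower.

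Germ-line genes included the member with the highest Pol II by the geometric mean of both folds. Tex19.1, needed for silencing of transposons in germ cells and placenta, reached 10.5-fold in WT and 13.0-fold in KO mESCs, and H2Bub1 covered 100% of its body in both. Kit, the receptor for stem cell factor, had 5.79-fold and 6.42-fold, with H2Bub1 over 39.7% in WT and 65.8% in KO. Dmc1, the meiotic recombinase, had 4.30-fold and 3.35-fold, and H2Bub1 over only 1.28% and 5.62% of its 43613 bp. These were 3 of 51 listed germ-line genes (5.88%), against 0.615% of all autosomal genes. Of the remaining 48, 29 had no promoter Pol II in any list and 4 had it in all.

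Other lists held at most 3 members each, against 0.615% of all autosomal genes. Cbx7, the Polycomb subunit that prevails in stem cells, had 9.57-fold Pol II in WT and 8.88-fold in KO, and was 1 of 28 genes for DNA methylation, Polycomb and KAP1 (3.57%), of which 13 had Pol II in all 4 lists. The epithelial genes Cdh1 (E-cadherin), Epcam and Cldn4 were 3 of 43 (6.98%). Epcam went from 3.14-fold to 5.50-fold and its H2Bub1 covered share from 33.4% to 79.5%, whereas Cdh1 went from 4.77-fold to 3.57-fold with a share of 66.4% and 66.9%. Gldc, the glycine decarboxylase that is abundant in stem cells, had 3.08-fold and 3.35-fold. It was 1 of 25 gene records of glycine, serine and one-carbon metabolism, of which 2 carry the symbol Gcat. The lineage factors Foxd3 and Neurog1 were 2 of 39 (5.13%), and none of 17 genes of the 2-cell-like state was a member.

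Groups formed after the values were seen describe the rest of the members. In mESCs, H2Bub1 was present in 90.6% (WT) and 96.9% (KO) of all members and in 55.7% and 62.1% of all genes. Transcription factors numbered 18, and all 18 had H2Bub1 in both mESC lists, with a median covered share of 72.1% in WT and 89.3% in KO. In MEFs, H2Bub1 was found in 0 of the 18 (WT) and in 1 (KO, Plagl1), against 9.38% and 14.8% of all members and 31.7% and 54.3% of all genes. Genes of testis, oocyte and meiosis numbered 12, with H2Bub1 in 7 in WT and 9 in KO mESCs, against 55.7% and 62.1% of all genes, and a median share of 1.78% and 20.98%. Neuronal and synaptic genes, such as Rims3, Syt9 and Dlgap2, numbered 10, all with H2Bub1 in both mESC lists, but at median shares of 3.88% and 15.1%. The 7 adhesion and junction genes had median shares of 33.4% and 66.9%. No gene family, grouped by the stem of the symbol, reached 5 members.

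Over all members the median promoter fold was 4.05 in WT (3.80 to 4.35) and 4.34 in KO mESCs (3.94 to 4.65). Values ran from 2.02 (Cyb561) to 17.6 (Gtsf1l) in WT and from 2.23 (Prr22) to 13.0 (Tex19.1) in KO. Promoters with Pol II in all 4 lists had higher medians, 4.85 and 4.87. The peaks of members were also weaker by the -log10 q of the peak caller, with medians of 7.37 and 6.95 against 11.2 and 9.84. Their summits lay a median of 127.5 bp downstream of the start in WT (63 to 202) and 105.5 bp in KO (62 to 168). Both intervals contained the 72 bp found in WT and KO for promoters with Pol II in all 4 lists. The summit was more than 1000 bp away from the start in 13 members in WT and in 11 in KO, so that only the flank of the peak reached the window. Pou5f1 (in WT) and Nanog (in both) were among them.

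The KO to WT comparison of promoter Pol II was centred near no change. The median log2 ratio was 0.09 (0.0024 to 0.20) for members and 0.02 for promoters in all 4 lists, and 76 of 128 members were higher in KO (59.4%). The direction of this median turned in other sets of peaks. It was -0.00063 with equal numbers of peaks in each WT and KO pair and -0.064 with equal numbers in all 4 Pol II lists. A KO value at least 1.5 times the WT value was found in 13 members (10.2%, 5.52 to 16.7), against 10.8% of the 5663 promoters with Pol II in both mESC lists. The reverse held for 7 members (5.47%, 2.23 to 10.9), against 10.9%. Both intervals contained the background share, and the ranking of members was only loosely shared between the genotypes (Spearman's rho 0.47 across 128 genes, a description, since genes of 1 library pair are no replicates).

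The largest differences at single members had no replicate check. Jade1, a scaffold of the HBO1 histone acetyltransferase complex, went from 3.73-fold in WT to 10.3-fold in KO mESCs, a ratio of 2.76, while H2Bub1 stayed at 91.1% and 90.3% of its body. Slc1a1, a glutamate transporter, had a ratio of 2.15, Hs6st3, a heparan sulfate sulfotransferase, 1.92, and Triml2 1.81. At the other end Gtsf1l, a small zinc finger gene related to the piRNA factor Gtsf1, went from 17.6-fold to 6.14-fold, a ratio of 0.35. Its peak summit was 1697 bp downstream of the start in WT and 2360 bp in KO, beyond the end of the 822 bp gene record, and the nearest RefSeq start of the gene was 1746 bp away. Tdgf1 (0.381), Sh2d4b (0.576) and Chst5 (0.607) followed.

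Other highly occupied members were less specific to stem cell biology. H2-M5, a nonclassical MHC class I gene, had 8.29-fold in WT and 5.13-fold in KO. Ssr2, a subunit of the complex associated with the protein translocon, had 6.95-fold and 7.07-fold. Kat6b, a histone acetyltransferase, had 6.23-fold and 7.52-fold, and Wdtc1 had 7.01-fold and 6.31-fold. Coil, the scaffold of Cajal bodies, had 5.41-fold and 6.82-fold, although its WT peak was shared with the neighbouring member Elobl. In all, the 128 members rested on 124 distinct peaks in WT and 125 in KO, since pairs such as B4galnt3 and D330020A13Rik, 2900011O08Rik and Ifitm7, and the 2 histone genes shared a peak, and 7 member windows contained a further protein-coding start.

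H2Bub1 was then examined in the gene bodies, a readout that had no part in choosing the members. It was present in 116 of 128 in WT mESCs (90.6%, 84.2 to 95.1) and in 124 in KO mESCs (96.9%). In MEFs it was present in 12 in WT (9.38%, 4.94 to 15.8) and in 19 in KO (14.8%, 9.18 to 22.2). The members were thus far above the shares of all autosomal genes in mESCs (55.7% and 62.1%) and far below them in MEFs (31.7% and 54.3%). With only peaks of a -log10 q of at least 3 the member shares were 55.3% (WT) and 78.1% (KO) in mESCs and 0.877% (WT) and 13.2% (KO) in MEFs, against 22.2% and 44.9% of all genes in mESCs and 5.76% and 49.4% in MEFs. The MEF shares were 22.5% (WT) and 38.5% (KO) with Pol II summits required inside the window, 27.2% in KO with equal numbers of peaks in the 4 Pol II lists, and 5.45% in WT with no MEF Pol II within 5000 bp. They were 0.935% (WT) and 1.87% (KO) without members that had a MEF peak at any annotated start, an alternative added after seeing the data. With a call at 10% of the body, members had 60.9% (WT) and 77.3% (KO) in mESCs and 3.91% (WT) and 10.2% (KO) in MEFs, against 32.8%, 46.4%, 19.09% and 47.9% of all genes.

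Promoters with Pol II in all 4 lists had H2Bub1 in 93.9% and 98.2% of bodies in mESCs, close to the members, but in 65.9% and 96.1% in MEFs. Genes with promoter Pol II in both MEF lists only had it in 42.5% and 90.1% in MEFs and still in 63.1% and 79.9% in mESCs. Genes with Pol II only in MEFs thus had H2Bub1 in mESCs far more often than the members had it in MEFs. The Pol II lists of mESCs were shorter than those of MEFs, whereas the H2Bub1 lists of mESCs were longer (40979 and 48952 peaks against 19725 and 28856). Genes with no promoter Pol II in any list had H2Bub1 in 20.7% and 24.3% of bodies in mESCs and in 4.54% and 9.78% in MEFs.

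**Figure D2:**
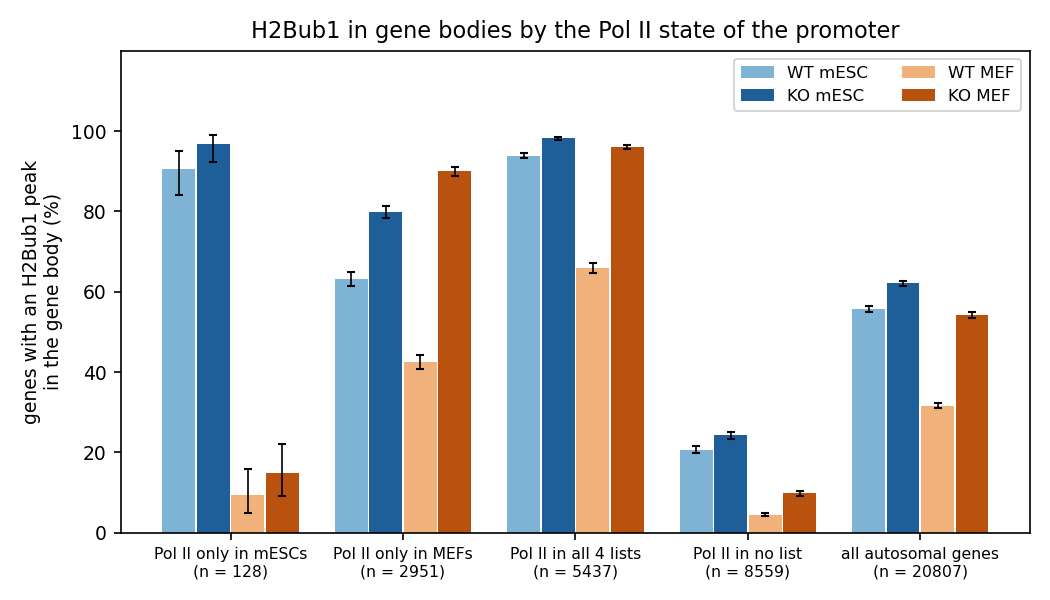
Share of genes with an H2Bub1 peak in the gene body (y axis, percent) in the 4 H2Bub1 lists, for genes grouped by Pol II at the promoter (x axis). Bars are percentages and whiskers exact 95% intervals that cover counting error only. Members (left) reach 90.6% and 96.9% in mESCs and 9.38% and 14.8% in MEFs.

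The 12 members without H2Bub1 in WT mESCs were mixed. In 8 of them H2Bub1 appeared in KO, over 60.2% of Gstp2, a glutathione transferase gene, 20.5% of Tmprss12, 11.3% of Pm20d1, 100% of the short Gtsf1l, and at most 5.06% of Npnt, Marc1, Strip2 and Tc2n. The other 4 (Hist1h2aa, Hist1h2ba, C2cd4a and Izumo2) had none in either genotype. Both histone genes are shorter than 400 bp, at 390 and 384 bp, and no member lost all of its H2Bub1 in KO.

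In mESCs the covered share of the members had a median of 23.0% in WT (13.5 to 41.7) and 50.03% in KO (28.9 to 64.4), and in promoters with Pol II in all 4 lists 19.6% and 43.1%. It was higher in KO at 103 members (80.5%, 72.5 to 86.9), against 54.2% of all autosomal genes and 85.0% of those with Pol II in all 4 lists. It was lower at 14 and equal at 11, of which 7 were covered over 100% and 4 over 0% in both. The median change was 9.12 percentage points (4.37 to 14.9) in members and 12.2 in genes with Pol II in all 4 lists. Where H2Bub1 was present, the mean H2Bub1 fold within a body had a median of 3.01 in WT (116 members) and 2.98 in KO (124 members). The median log2 ratio of this fold was 0.0072 (-0.062 to 0.058) over 116 members, against 0.094 in genes with Pol II in all 4 lists. There were 40979 H2Bub1 peaks in the WT and 48952 in the KO list of mESCs, and with equal numbers of peaks in each WT and KO pair the median share was 30.1% in WT and 49.5% in KO, higher in KO at 74.8% of 107 members. With only peaks of a -log10 q of at least 3, the median covered share was 1.06% in WT and 26.0% in KO.

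Among members of at least 5000 bp, the largest differences towards KO were at Gstp2 (60.2 percentage points), Calcoco2, an autophagy receptor (34.3% to 90.5%), Tspan13, a tetraspanin (4.87% to 54.1%), and Epcam (33.4% to 79.5%). The largest differences towards WT were at Nefh, the heavy neurofilament subunit (47.5% to 32.4%), Myo15b (21.3% to 10.7%), Coil (65.7% to 58.0%) and Tdgf1 (83.8% to 77.0%). Among shorter genes, changes were large both ways, as the 1959 bp Prr22 went from 95.7% to 14.9% and the 822 bp Gtsf1l from 0% to 100%. In bodies of at least 5000 bp the differences towards KO were thus the larger ones.

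The covered share depended on the length of the gene. It was 62.7% in WT and 91.3% in KO (medians) at the 31 members shorter than 5 kb, and 48.0% and 74.3% at the 34 of 5 to 20 kb. It was 15.9% and 38.1% at the 38 of 20 to 100 kb, and 0.978% and 6.15% at the 25 longer ones, such as Dlgap2 and Ryr2, the cardiac calcium release channel (0.978% and 3.42%). Spearman's rho of length and share was -0.49 in WT and -0.52 in KO across 128 genes. The change in covered share and the change in promoter Pol II had a rho of 0.058 across the same genes, so that the members were ordered differently by the 2 changes. Both values are descriptions across genes and share their libraries.

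**Figure D3:**
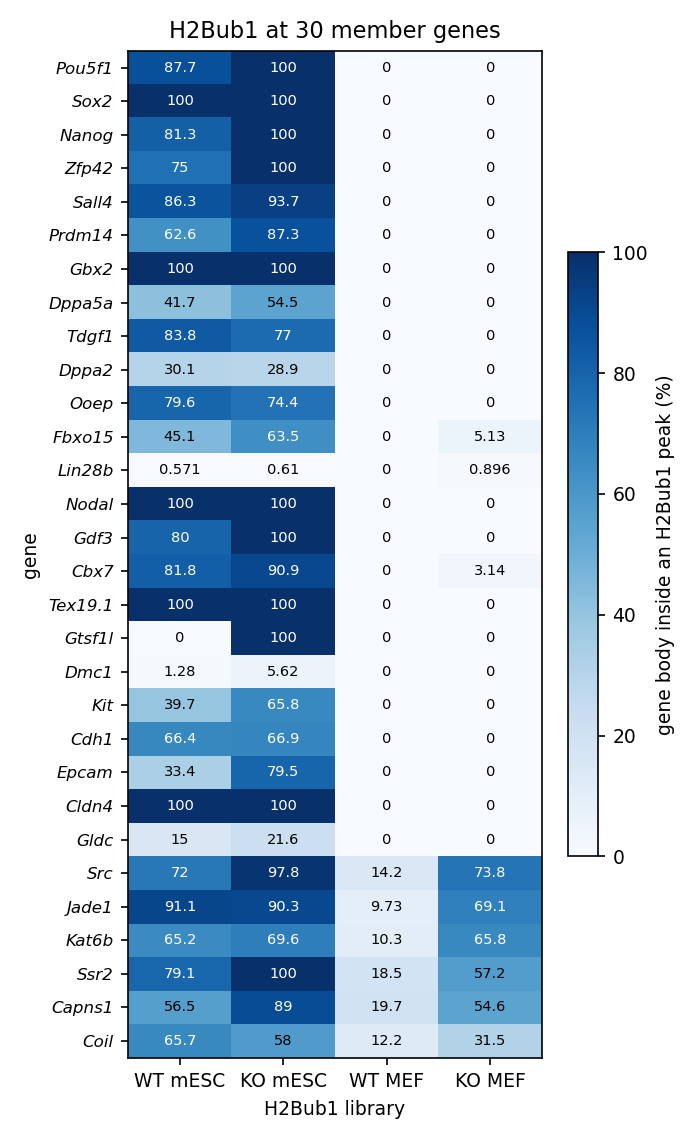
Part of the gene body inside an H2Bub1 peak (colour and printed value, percent) for 30 member genes (rows) in the 4 H2Bub1 libraries (columns). The upper 24 genes are at or near 0 in MEFs, and most of them are covered in mESCs. Among them, Gtsf1l is at 0% in WT mESCs, and Lin28b has 0.571% (WT) and 0.610% (KO) in mESCs and 0.896% in KO MEFs. The lowest 6, from Src to Coil, have H2Bub1 in all 4 libraries.

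Along the gene, H2Bub1 at members was highest just downstream of the start. At 400 bp downstream, 90 members were inside a peak in WT mESCs (70.3%, 61.6 to 78.1), and at 300 bp 111 were in KO mESCs (86.7%, 79.6 to 92.1). At the start itself the shares were 46.9% and 71.1%, and at 5000 bp downstream 29.7% and 53.9%. For the 31 members shorter than 5 kb this last position lies beyond the end of the gene. In MEFs the highest shares anywhere from 1000 bp upstream to 5000 bp downstream were 2.34% in WT and 3.91% in KO, both at the far end. Genes with Pol II in all 4 lists peaked at 400 bp in mESCs (76.7% and 94.4%) and at 700 bp in MEFs (33.3% and 93.0%). The mESC profile of members thus resembled that of genes occupied in all 4 lists in position. Its top was lower in KO, while in WT the interval contained the share of those genes.

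**Figure D4:**
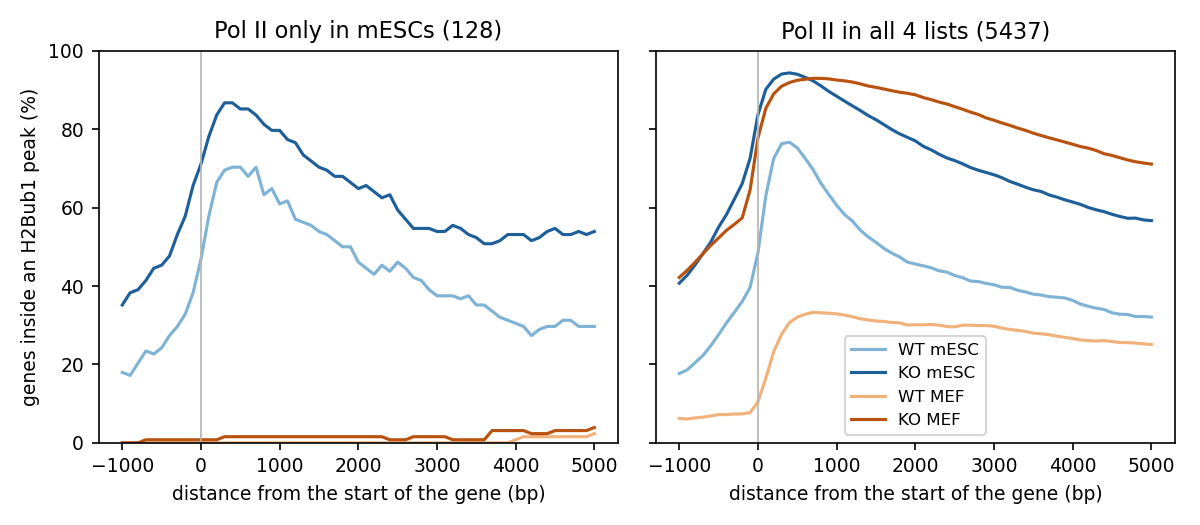
Share of genes inside an H2Bub1 peak (y axis, percent) by distance from the start of the gene (x axis, bp, downstream positive) in the 4 H2Bub1 lists, for the 128 members (left) and the 5437 genes with promoter Pol II in all 4 lists (right). Members top out at 70.3% (WT) and 86.7% (KO) in mESCs and stay under 4% in MEFs.

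The members with H2Bub1 in MEFs were examined for Pol II elsewhere in the gene. A Pol II peak of MEFs lay at another annotated transcript start of the same gene in 21 members, in the body only in 16 and nowhere in the gene in 91. Of the 21, H2Bub1 was present in 11 in WT MEFs (52.4%, 29.8 to 74.3) and in 17 in KO MEFs (81.0%, 58.1 to 94.6). Of the 16 it was present in 1 (6.25%) in each genotype, which was Maneal. Of the 91 it was present in 0 in WT (at most 3.97% by the exact interval) and in 1 in KO MEFs (1.10%), Npnt, over 3.15% of its body. Of the 19 members with H2Bub1 in MEFs, 17 thus had MEF Pol II at another start.

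The same order held among all 8996 genes without a MEF peak at the promoter. With MEF Pol II at another start, 41.9% had H2Bub1 in WT MEFs and 73.7% in KO MEFs, with Pol II in the body only 11.2% and 27.8%, and with none in the gene 0.385% and 1.99%. In mESCs, the 91 members with no MEF Pol II had H2Bub1 in 80 (87.9%) in WT and in 88 (96.7%) in KO. Of all 7540 genes with no MEF Pol II in the gene, 15.9% and 18.5% had it in mESCs. In MEFs the 91 members, at 0% and 1.10%, were near the 0.385% and 1.99% of those genes.

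The genes with another start in use included regulators of signalling and chromatin. Src, the tyrosine kinase, was covered over 72.0% (WT) and 97.8% (KO) in mESCs and over 14.2% and 73.8% in MEFs. Jade1 had 91.1% and 90.3% in mESCs and 9.73% and 69.1% in MEFs, and Kat6b 65.2% and 69.6%, then 10.3% and 65.8%. Ssr2 had 18.5% and 57.2% in MEFs and Capns1, the small calpain subunit, 19.7% and 54.6%. The covered share in MEFs was higher in KO at all 19 members with any H2Bub1 in MEFs and lower at none, that is, at 14.8% of the members against 53.8% of all autosomal genes. This share was 37.9% with Pol II summits inside the window, 27.2% with equal numbers of peaks in the 4 Pol II lists and 1.87% without members that had a MEF peak at any annotated start. Cbx7 (3.14%), Fbxo15 (5.13%) and Lin28b (0.896%) had it in KO MEFs only. In 4 members with another start occupied in MEFs (Camk2b, Camsap3, Cyb561 and Prr22) no H2Bub1 was found in either MEF list.

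The nearest MEF Pol II peak was a median of 33738.5 bp from the start of a member. It lay within 5000 bp at 18 members, beyond 50000 bp at 46 and at most 913114 bp away (Triml2). At Sox2 the distance was 567945 bp, at Zfp42 786675 bp and at Kit 372228 bp, but at Nanog only 3704 bp. Just inside the rule were Prr22 (1011 bp), C2cd4a (1015 bp) and Abr (1087 bp), and just outside it were Fgf11 (969 bp), Gltpd2 (932 bp) and Med12l (810 bp). The weakest member peaks by -log10 q were those of Cyb561 (1.45), Plagl1 (1.71) and Prr22 (1.88).

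**Figure D5:**
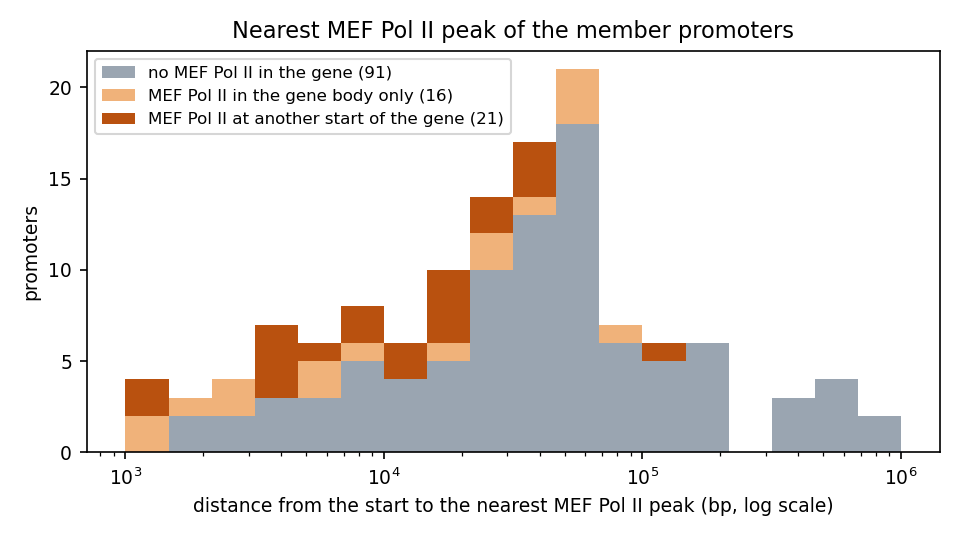
Number of member promoters (y axis) by distance from the gene start to the nearest Pol II peak of either MEF list (x axis, bp, log scale). Colours divide the members into 91 with no MEF Pol II in the gene, 16 with it in the gene body only and 21 with it at another annotated start.

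Pol II within the bodies of members was lower in KO mESCs at more genes than it was higher. A body begins at the gene start and so holds the downstream part of the window used to choose the members, which makes these values a description. The share of the body inside Pol II peaks was lower in KO at 84 members and higher at 40, with medians of 3.73% in WT (2.02 to 6.30) and 2.31% in KO (1.33 to 3.93). Genes with Pol II in all 4 lists went from 2.41% to 1.82%, lower at 69.2% against 65.6% of the members. The KO list of Pol II was shorter than the WT list (11963 against 17074 peaks), and the part of that difference was not tested.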

How the data were processed

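In all, 8 groups of 1 library each were analysed. The authors sequenced single-end reads, aligned them to mm10 and called peaks per library, narrow for Pol II and broad for H2Bub1; the submitters' processing notes name bcl2fastq 2.17.1.14, Bowtie 1.0.0 and MACS2 2.1.1.20160309. The authors scaled H2Bub1 signal on intergenic regions and Pol II signal on mapped reads, but how this entered the calls is not given in the sources used here. The deposited peak values are a fold ratio over local background, a -log10 p and a -log10 q, an integer score and, in the narrow lists, the summit offset the authors give. Inputs and serine 2 phosphorylated Pol II libraries were not analysed here.

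Positions were set against GENCODE M21 protein-coding genes on chromosomes 1 to 19 of the same build. An overlap of 1 bp made a call, the highest peak in the window gave the promoter fold, and a gene body ran from start to end of the record. All chromosomes of the sequence file were at least as long as the last peak. Shares have Clopper-Pearson intervals, medians exact binomial ones. Since each library has its own background for the fold, and longer lists cover more, KO to WT differences give no absolute change. No test was possible with 1 library per group. Functions were tested on simulated data. The tools were matplotlib 3.10.9, pandas 2.3.3, scipy 1.17.1, numpy 2.4.6 and Python 3.11.15.

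The members and gene lists were chosen with earlier results of these data known. Genes were named by rule: marker and list genes among the members, the 15 highest by geometric mean fold, the 4 highest and 4 lowest KO to WT ratios, the 4 largest H2Bub1 rises and falls and the 4 highest MEF shares in bodies of at least 5000 bp, and the 3 members or others nearest each threshold. The members without H2Bub1, those with MEF Pol II elsewhere, the 4 descriptive groups and a few further examples were named after their values were seen. Of the 12 alternatives, listed with the closing values, 2 were added after seeing the data.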

Additional observations from a re-analysis of the deposited data

Results flagged for a closer look

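At 3 members the H2Bub1 covered share moved in opposite directions in mESCs and MEFs between WT and KO, and this difference was not tested because each group is 1 library. As KO minus WT, Coil differed by -7.71 percentage points in mESCs and by 19.3 in MEFs. Jade1 differed by -0.839 points in mESCs and by 59.4 in MEFs. Maneal differed by -4.90 points in mESCs and by 35.8 in MEFs. All 3 had a covered share over 50% in both mESC lists and MEF Pol II elsewhere in the gene.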

How the results depend on the processing

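Of 147 recomputed values over 12 alternatives, 124 stayed within the limits set, 21 moved and 2 changed sign. The limits were the 95% interval of the main value, and a 1.5-fold change for the number of members. The cause of these changes was not tested. No paired analysis was possible because each group has 1 library without a replicate number. The median log2 KO to WT promoter ratio became -0.00063 with equal numbers of peaks per pair and -0.064 with equal numbers in the 4 Pol II lists. With equal numbers per pair the WT promoter fold was 4.37. With equal numbers in the 4 lists there were 246 members (100 shared, 40.7% of the 246 and 78.1% of the 128), with a WT fold of 4.48 and H2Bub1 in 27.2% in KO MEFs, higher in KO MEFs at 27.2%. At a -log10 q of at least 3, H2Bub1 was present in 55.3% (WT mESC), 78.1% (KO mESC) and 0.877% (WT MEF), the median covered share was 1.06% and 26.0% in mESCs, and 66.7% were higher in KO mESCs. With the summit inside the window, H2Bub1 was present in 22.5% (WT MEF) and 38.5% (KO MEF), higher in KO MEFs at 37.9%. A call at 10% of the body gave 60.9% (WT mESC), 77.3% (KO mESC) and 3.91% (WT MEF). Genes at least 5000 bp from another left 74 members. Without MEF peaks at any annotated start, an alternative chosen after seeing the data, H2Bub1 was present in 0.935% (WT MEF) and 1.87% (KO MEF), higher in KO MEFs at 1.87%. Windows of 500 bp, of 2000 bp, or from 100 bp upstream to 300 bp downstream, no MEF peak within 5000 bp, and no other start in the window (also added) left every value within those limits, although H2Bub1 in WT MEFs was 5.45% against 9.38% with no MEF peak within 5000 bp. Depth limits the lists, since the read numbers are unknown and a weak MEF peak under the threshold counts as absent.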
